A study of Populus alba x Populus glandulosa with 12 samples.

Results

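The genes of branched-chain amino acid breakdown were examined in leaves of wild-type 84K poplar, a hybrid clone of Populus alba and Populus glandulosa, during 9 days of drought. The members are the genes that the deposited annotation places in the pathway entry for valine, leucine and isoleucine degradation. Genes that it also places in fatty acid degradation, the peroxisome or the citrate cycle were left out by the rule. This gave 83 of the 85392 gene models, out of 150 in the pathway entry. RNA from leaf was sequenced on days 0, 3, 6 and 9 of drought, with 3 libraries a day and 12 in all, and day 0 was labelled as the control. The labels name the genotype of all libraries as wild type and give no plant age. No plants kept without drought on days 3, 6 and 9 are among the samples, and each day has its own batch label. Drought, plant age and batch therefore cannot be told apart. The replicates are described as biological, with no statement on whether each is a plant of its own, so p-values measure the spread between these libraries, which may be technical.

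Breakdown of leucine, isoleucine and valine begins with shared steps in plant mitochondria. Branched-chain aminotransferase (BCAT) removes the amino group, and the branched-chain 2-oxoacid dehydrogenase complex turns the resulting oxoacids into acyl-CoA esters. The leucine branch then runs through isovaleryl-CoA dehydrogenase, methylcrotonyl-CoA carboxylase and methylglutaconyl-CoA hydratase. The valine branch runs through hydroxyisobutyryl-CoA hydrolase, hydroxyisobutyrate dehydrogenase and methylmalonate semialdehyde dehydrogenase. In Arabidopsis the pathway is known to feed electrons into respiration when sugar is short, as in prolonged darkness or drought. The BCAT step is reversible, and plants also have plastid forms that complete the synthesis of these amino acids.

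The members carry 16 enzyme names in the KEGG orthology (KO) annotation, and 3 of the genes carry 2 names at once. There were 6 BCAT genes, 6 genes for the E1 alpha subunit of the dehydrogenase complex (BCKDHA) and 5 for its E2 subunit (DBT). The leucine branch held 2 isovaleryl-CoA dehydrogenase (IVD) genes, 2 genes each for the alpha and beta subunits of methylcrotonyl-CoA carboxylase (MCCA and MCCB), and 6 hydratase (AUH) genes. The valine branch held 24 hydrolase (HIBCH) genes, 2 more that carry the names DIM1 and HIBCH, 4 dehydrogenase (HIBADH) genes and 8 semialdehyde dehydrogenase (ALDH6A1) genes. The remaining members were 4 HMG-CoA synthase (HMGCS) genes, 8 aminotransferase genes named AGXT2, 3 acyl-CoA synthetase genes named ACSF3, of which 1 is also named leuB, and 1 hydroxypropionate dehydrogenase gene (HPD1). No gene in the table carries the KO number of the E1 beta subunit, so that subunit was not analysed here. The annotation gives the GO term valine catabolic process to 29 members and the term mitochondrion to 8. All 6 BCAT genes carry the GO term for branched-chain amino acid synthesis, so the annotation does not separate the breakdown forms from the synthesis forms.

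Levels are FPKM as deposited, which are fragments scaled by transcript length and by library size. A gene was tested where it reached 1 FPKM in at least 3 of the 12 libraries, which 59 of the 83 members did. Of the 24 untested members, 10 were listed at 0 in all 12 libraries and 14 stayed at or under 1.62 FPKM. Of the 59 tested, 51 reached 1 FPKM in all libraries and 8 in fewer. Tested members were fitted with limma on log2(FPKM + 1) together with all 40736 genes that passed the same minimum, and p-values were adjusted over all of these. Genes with an adjusted p under 0.05 are said to be called, higher or lower. Changes are differences on the log2(FPKM + 1) scale, which understates the change of low genes.

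Over the 12 libraries, the sum of FPKM lay between 684857 and 732119. Read depth is unknown. The most frequent ratio of low FPKM values to those of the same genes in the first day 0 library put the relative depth of the libraries between 0.872 and 1.12. Changes of expression between days may also move this estimate. The leaf label was checked on the markers of mesophyll, namely Rubisco small subunit and light-harvesting antenna genes, whose summed level ranged over the libraries from 25767.5 to 26462.1 FPKM on day 0. The range was 12986.6 to 14479.9 on day 3, 936.1 to 952.7 on day 6 and 859.7 to 1057.6 on day 9. Of 55 tested mesophyll markers, 48 were lower on day 3, and all 55 were lower on day 6 and on day 9. Of the 60 markers listed, 4 were at 0 throughout day 0 and 5 throughout day 6. Guard cell markers summed to 26.9 to 32.6 FPKM on day 0, 24.5 to 31.4 on day 3, 42.2 to 49.8 on day 6 and 39.1 to 46.2 on day 9, with 8 of 16 at 0 on day 0. The sum went up while 4 of the 7 tested guard cell markers were lower and 2 higher on days 6 and 9. Cellulose synthase and laccase genes, listed for vascular tissue, summed to 550.3 to 559.1, 356.2 to 381.5, 411.4 to 489.2 and 630.6 to 670.6 FPKM on the same days, with 31 of 108 at 0 on day 0. All genes of these names were taken, not only secondary wall forms, so the list does not stand for vascular tissue alone. Of the 59 tested genes of this list, those called higher numbered 6, 8 and 9 on the later days in order and those called lower 35, 45 and 43. Of all genes tested, 25.2%, 47.6% and 46.0% were lower on days 3, 6 and 9. The part of the marker shifts in the results was not tested. In bulk leaf RNA, fewer cells of a type and less RNA per cell cannot be told apart.

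On day 3, 18 of the 59 tested members were higher than on day 0 and 5 were lower, or 39.0% called against 47.7% of all genes tested. The share called higher was 30.5% against 22.6% of all genes, and the share called lower was 8.47% against 25.2%. On day 6, 23 were higher and 21 lower, which is 74.6% against 76.8% of all genes. On day 9, 23 were higher and 17 lower, which is 67.8% against 76.9%. The share of members called was thus below that of all genes on each day, and on day 6 it was close to it. The share called higher was 39.0% on both later days, beside 29.2% of all genes on day 6 and 30.9% on day 9. The 3 comparisons share the day 0 libraries. The 3 libraries of day 3 lay above all of day 0 for 22 members and below for 12, beside 57.4% of all genes without overlap. For day 6 the counts were 23 and 21 beside 79.4%, and for day 9 they were 25 and 17 beside 79.2%.

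The median log2 change of the tested members was 0.07, 0.10 and 0.13 on days 3, 6 and 9. The medians over all genes tested were -0.01, -0.21 and -0.18. Without replicate 3 of day 3 the day 3 median was 0.0469, and the day 6 median was 0.0582 or 0.0438 without replicate 1 or 3 of day 0 and 0.0535 without replicate 1 of day 6. Scaling the libraries by median ratios, which sets the typical gene to no change, raised the members' medians to 0.31 on day 6 and 0.33 on day 9, and left that of day 3 at 0.07. The split on day 6 was then 28 higher and 15 lower, and on day 9 it was 30 higher and 12 lower. Over all genes, the share of calls that were higher moved from 38.0% to 50.5% on day 6 and from 40.2% to 50.1% on day 9. The rescaling moved the median over all genes tested from -0.21 to 0.008 on day 6 and from -0.18 to -0.0004 on day 9. The shift differs between genes and is smaller for low ones, because of the pseudocount. The IVD median on day 6, for example, went from 0.95 to 1.22. Changes no larger than these shifts depend on the scaling. Where it ends a call against day 0 of a gene named here, that is said beside the gene. Calls against day 0 that it adds are not listed by gene.

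**Figure D1:**
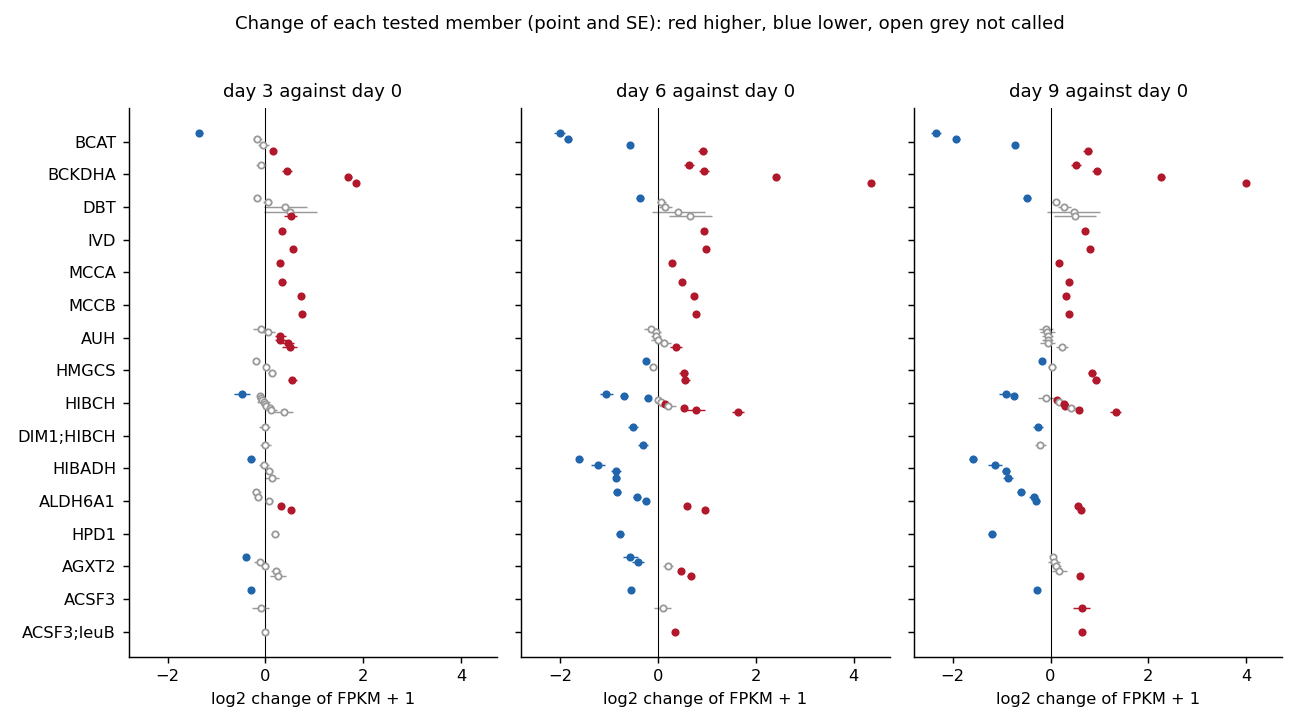
Log2 change of FPKM + 1 (horizontal axis) of each of the 59 tested members on days 3, 6 and 9 against day 0, by enzyme name. Points are limma estimates with their SE, filled where called and open where not. BCKDHA genes reach 4.35 on day 6 and a BCAT gene reaches -2.34 on day 9.

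Summed over all 83 members, the level was 645 ± 10.9, 730 ± 9.72, 851 ± 5.27 and 789 ± 10.7 FPKM on days 0, 3, 6 and 9 (SD, n = 3). The ratio to day 0 was 1.13, 1.32 and 1.22. BCKDHA alone went from 18.7 ± 1.00 to 148 ± 2.30 FPKM between day 0 and day 6. The sums of the enzymes moved in different directions. BCKDHA, IVD, MCCA, MCCB and ALDH6A1 were above their day 0 libraries on all 3 later days without overlap. BCAT and the 2 genes named ACSF3 alone were below on all 3 days. HIBADH, HPD1 and the genes named DIM1 and HIBCH were below on days 6 and 9. HIBCH, AGXT2 and the gene named ACSF3 and leuB were above on days 6 and 9. AGXT2 was below and HPD1 above on day 3, AUH was above on days 3 and 6, and HMGCS on day 9. Of all single genes tested, 57.4%, 79.4% and 79.2% had no overlap with day 0 on days 3, 6 and 9. The sums are described by library and were not tested.

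**Figure D2:**
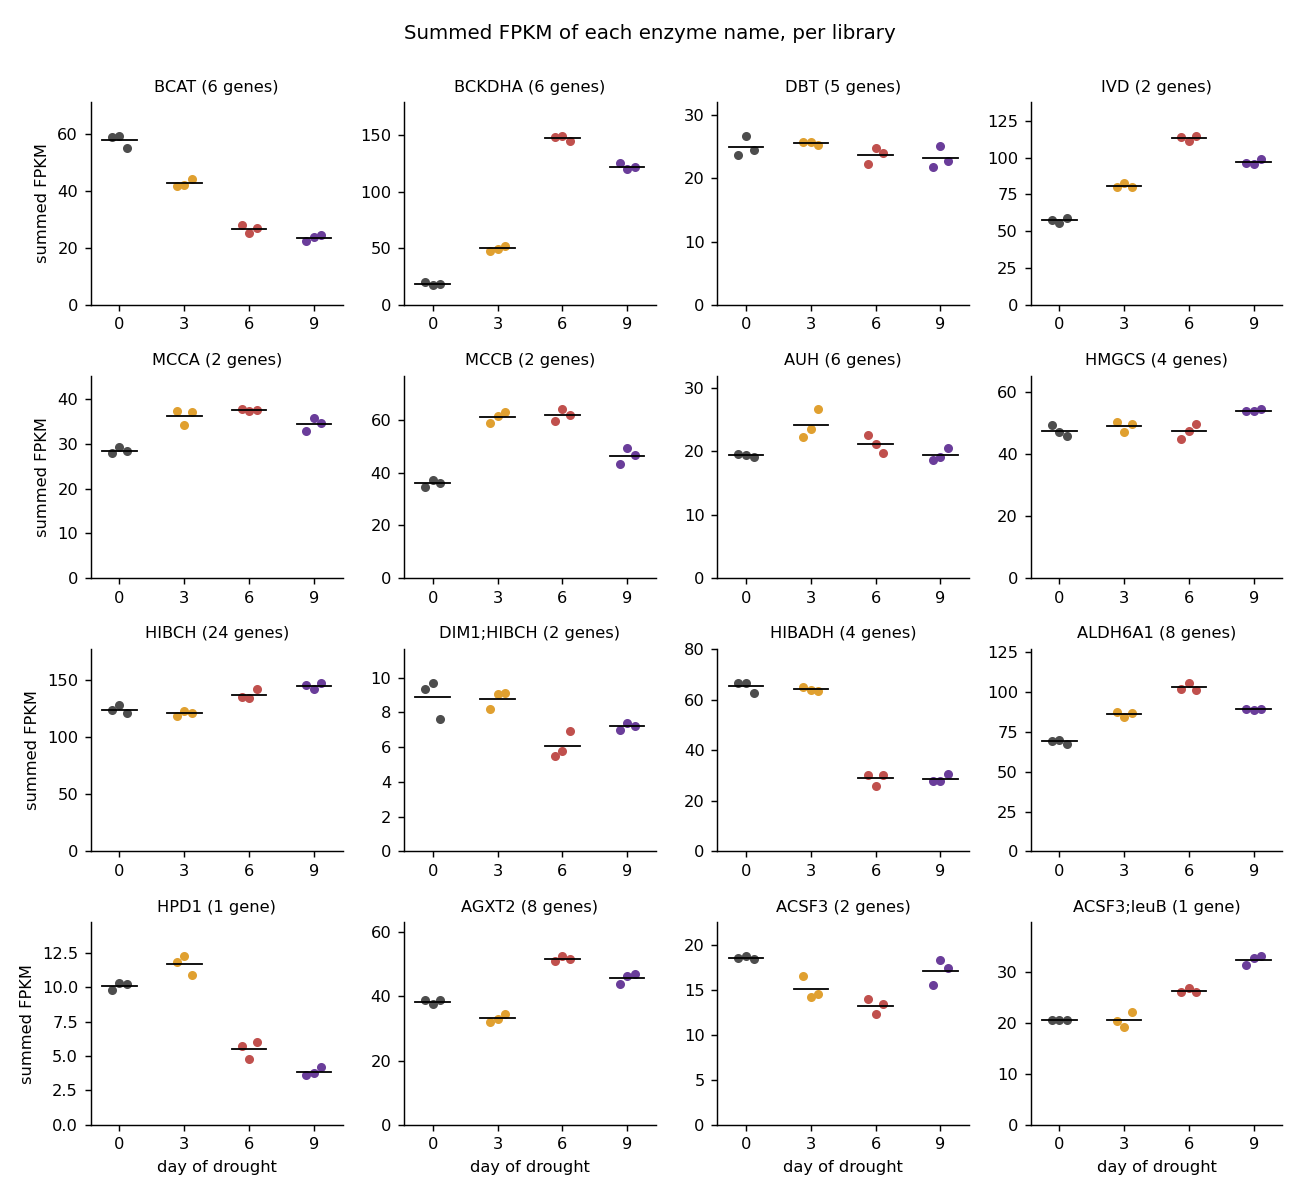
Summed FPKM (vertical axis, from 0) of the genes of each enzyme name against day of drought. Points are libraries and bars the mean of each day. BCKDHA climbs to 148 FPKM on day 6, while BCAT goes from 57.8 to 23.6 FPKM and HIBADH from 65.3 to 28.8 FPKM between day 0 and day 9.

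BCAT catalyses the first step, and 3 of its 4 tested genes were lower on days 6 and 9 while the other one was higher. On day 3, 1 gene was lower and 1 was higher. Of all genes tested, 25.2%, 47.6% and 46.0% were lower on days 3, 6 and 9, and 22.6%, 29.2% and 30.9% higher. The sum over the 6 genes was 57.8 ± 2.41, 42.8 ± 1.22, 26.8 ± 1.28 and 23.6 ± 1.03 FPKM on days 0, 3, 6 and 9 (SD, n = 3). The ratio to day 0 was 0.740, 0.464 and 0.408, and under median-ratio scaling 0.740, 0.563 and 0.474.

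The BCAT gene with the highest level on day 0, Pag.B02G001263.v3.1, had an FPKM of 24.58, 25.77 and 22.18 (day 0), 8.50, 8.56 and 9.52 (day 3), 5.96, 5.57 and 6.51 (day 6), and 5.18, 5.73 and 5.99 (day 9). All later libraries lay below every day 0 library, and most of the difference was already there on day 3. Its log2 change by limma was -1.35 (SE 0.077, adjusted p = 5.55e-08) on day 3, -1.84 (SE 0.077, adjusted p = 7.10e-10) on day 6 and -1.92 (SE 0.077, adjusted p = 5.04e-10) on day 9. The gene Pag.B09G000834.v3.1 had an FPKM of 16.71, 15.43 and 15.33 (day 0), 15.12, 15.26 and 15.48 (day 3), 2.86, 3.17 and 3.53 (day 6), and 1.70, 2.64 and 2.70 (day 9). Its day 0 and day 3 libraries overlapped, and its day 6 and day 9 libraries were all lower. It was not called on day 3, with a log2 change of -0.05 (SE 0.11, adjusted p = 0.766). The change was -2.01 (SE 0.11, adjusted p = 8.27e-09) on day 6 and -2.34 (SE 0.11, adjusted p = 2.05e-09) on day 9, the lowest of any tested member there.

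The BCAT gene Pag.A09G000831.v3.1 had an FPKM of 12.72, 13.03 and 12.36 (day 0), 14.09, 14.51 and 13.87 (day 3), 8.35, 8.52 and 7.95 (day 6), and 6.96, 7.36 and 7.64 (day 9). Its day 3 libraries were above day 0 by a small margin, and its day 6 and day 9 libraries were below. By limma, the log2 change was 0.15 (SE 0.049, adjusted p = 0.03) on day 3, a call that was lost when any of 4 single libraries was left out, namely replicate 1 or 3 of day 0 or replicate 1 or 2 of day 3. It was -0.56 (SE 0.049, adjusted p = 6.37e-07) on day 6 and -0.72 (SE 0.049, adjusted p = 6.82e-08) on day 9. The gene Pag.A02G001562.v3.1 went the other way, with an FPKM of 4.31, 4.11 and 4.25 (day 0), 3.35, 3.58 and 4.09 (day 3), 10.31, 7.68 and 8.71 (day 6), and 8.04, 7.93 and 7.54 (day 9). Its day 6 and day 9 libraries were all above day 0. Against day 0 the log2 change was 0.91 (SE 0.092, adjusted p = 2.24e-06) on day 6 and 0.76 (SE 0.092, adjusted p = 1.18e-05) on day 9, and it was not called on day 3 at -0.16. The other 2 BCAT genes were not tested.

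BCKDHA encodes the E1 alpha subunit of the dehydrogenase complex, which carries out the committed step. All 4 tested BCKDHA genes were higher on days 6 and 9, and 3 of them on day 3, beside 22.6%, 29.2% and 30.9% of all genes tested on days 3, 6 and 9. The sum over the 6 genes was 18.7 ± 1.00, 49.8 ± 2.30, 148 ± 2.30 and 122 ± 2.98 FPKM on days 0, 3, 6 and 9 (SD, n = 3). This is 2.66, 7.88 and 6.53 times the day 0 level, or 2.66, 9.56 and 7.59 times under median-ratio scaling.

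The gene Pag.B05G001863.v3.1 carried the largest part of this rise. Its FPKM was 3.54, 3.47 and 3.40 (day 0), 14.21, 15.43 and 15.70 (day 3), 92.39, 90.32 and 88.02 (day 6), and 72.93, 68.26 and 68.54 (day 9). The days were separated without overlap, with day 6 the highest. The mean FPKM was 4.36 times that of day 0 on day 3, 26.0 times on day 6 and 20.1 times on day 9. The log2 change by limma was 1.85 (SE 0.046, adjusted p = 5.17e-11), 4.35 (SE 0.046, adjusted p = 1.31e-14) and 3.99 (SE 0.046, adjusted p = 2.45e-14) on days 3, 6 and 9. Day 6 was higher than day 3 by 2.50 (SE 0.046, adjusted p = 3.14e-12), and day 9 differed from day 6 by -0.36 (SE 0.046, adjusted p = 3.10e-04).

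A second BCKDHA gene, Pag.A05G001887.v3.1, had an FPKM of 7.51, 7.21 and 6.04 (day 0), 23.19, 24.42 and 26.17 (day 3), 40.12, 42.94 and 40.64 (day 6), and 37.10, 35.72 and 37.73 (day 9). It too was higher in all later libraries than in any of day 0. It differed from day 0 by a log2 change of 1.70 (SE 0.07, adjusted p = 3.67e-09) on day 3, 2.42 (SE 0.07, adjusted p = 2.87e-11) on day 6 and 2.26 (SE 0.07, adjusted p = 5.37e-11) on day 9. Day 9 against day 6 was not called, at -0.16 (SE 0.07, adjusted p = 0.136). A lower gene, Pag.B05G000683.v3.1, had an FPKM of 5.23, 3.99 and 5.06 (day 0), 7.34, 5.86 and 7.32 (day 3), 10.34, 10.49 and 9.14 (day 6), and 9.98, 9.86 and 10.18 (day 9). All its later libraries were above day 0, and its days 6 and 9 overlapped. Its log2 change was 0.45 (SE 0.099, adjusted p = 0.00307) on day 3, 0.94 (SE 0.099, adjusted p = 3.60e-06) on day 6 and 0.94 (SE 0.099, adjusted p = 3.49e-06) on day 9. The last tested BCKDHA gene, Pag.A05G000645.v3.1, which the naming rule did not select, changed by 0.64 on day 6 and 0.52 on day 9 and was not called on day 3 at -0.10.

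**Figure D3:**
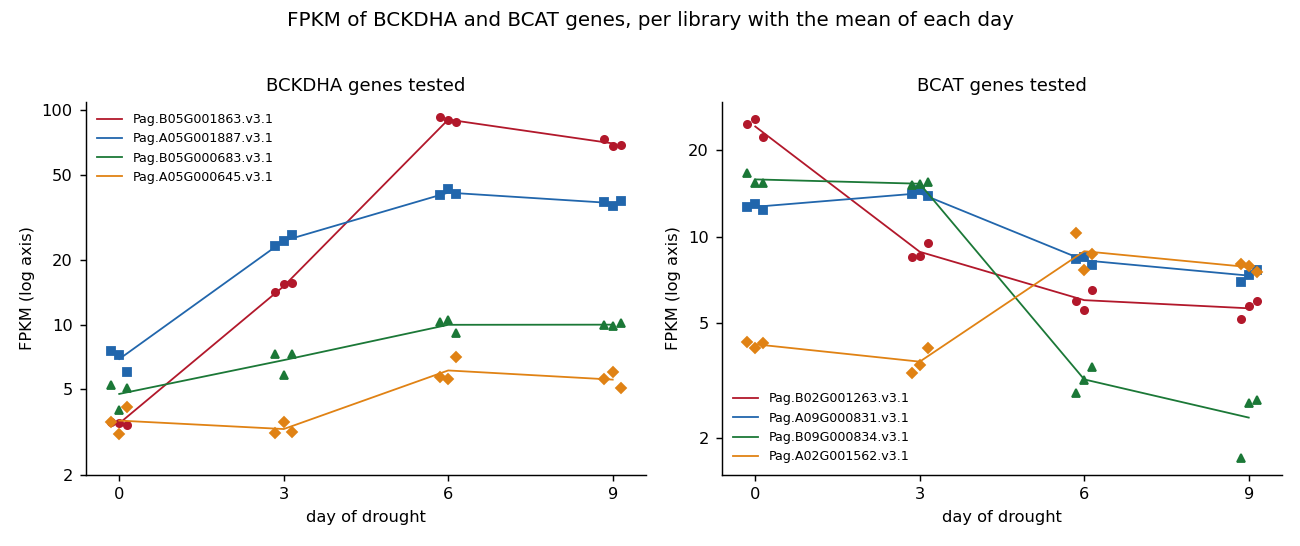
FPKM on a log axis against day of drought for the 4 tested BCKDHA genes and the 4 tested BCAT genes. Points are libraries and lines join the means of the days. Pag.B05G001863.v3.1 goes from between 3.40 and 3.54 FPKM on day 0 to between 88.02 and 92.39 on day 6, and 3 of the 4 BCAT genes end lower than they began.

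DBT encodes the E2 subunit, the core to which E1 binds, and most of its genes were not called on any day. The DBT sum was 25.0 ± 1.52, 25.6 ± 0.295, 23.7 ± 1.27 and 23.2 ± 1.66 FPKM on days 0, 3, 6 and 9 (SD, n = 3). The libraries of each later day overlapped those of day 0. The ratio to day 0 was 1.03, 0.950 and 0.930, and median-ratio scaling turned the latter 2 to 1.15 and 1.08. The gene with the highest level, Pag.B10G000145.v3.1, had an FPKM of 14.49, 15.82 and 15.22 (day 0), 13.62, 13.43 and 13.20 (day 3), 10.21, 13.26 and 11.38 (day 6), and 9.74, 11.10 and 10.80 (day 9). Each later day lay below day 0. Its log2 change was -0.17 (SE 0.08, adjusted p = 0.115) on day 3, -0.36 (SE 0.08, adjusted p = 0.00139) on day 6 and -0.49 (SE 0.08, adjusted p = 1.58e-04) on day 9. The call on day 6 was lost under median-ratio scaling, where the change was -0.11. Of the other 4 DBT genes, 1 was called higher on day 3 and none on days 6 and 9, and 3 of them had day 0 means at or under 1.00 FPKM. Median-ratio scaling raised the genes called higher in BCKDHA and DBT together from 4 to 5 on day 6 and from 4 to 6 on day 9. As only 4 BCKDHA genes were tested, DBT genes were among those then called higher, so the lack of DBT calls depends on the scaling.

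In the leucine branch, 10 of 12 tested genes were higher on day 3, 7 on day 6 and 6 on day 9, and 0 were lower on any of these days. The background of genes called higher was 22.6%, 29.2% and 30.9%, and that of genes called lower was 25.2%, 47.6% and 46.0%. A pair of AUH genes with identical values counts as 1 measurement, which leaves 9 of 11 higher on day 3. When single libraries were left out, 7 to 9 of the 12 genes were called higher on day 3, 6 to 7 on day 6 and 6 to 7 on day 9, and the calls lost on days 3 and 6 were those of AUH. The same 12 genes had a median log2 change of 0.34 on day 3, 0.33 on day 6 and 0.20 on day 9. Genes of IVD, MCCA and MCCB were called higher on each of the days, and genes of AUH mainly on day 3.

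IVD is a flavoprotein that oxidises isovaleryl-CoA and passes electrons to the electron transfer flavoprotein. Its 2 genes summed to 57.3 ± 1.52, 80.9 ± 1.45, 113 ± 1.56 and 97.0 ± 1.72 FPKM on days 0, 3, 6 and 9 (SD, n = 3). The member with the highest mean of all, Pag.B09G000108.v3.1, had an FPKM of 39.11, 37.47 and 38.16 (day 0), 57.01, 56.68 and 56.38 (day 3), 74.84, 75.60 and 77.44 (day 6), and 61.37, 62.90 and 64.22 (day 9). The 4 days did not overlap, and day 6 was the highest. The fitted log2 difference from day 0 was 0.56 (SE 0.032, adjusted p = 6.52e-08) on day 3, 0.97 (SE 0.032, adjusted p = 9.31e-11) on day 6 and 0.70 (SE 0.032, adjusted p = 1.73e-09) on day 9. The day 9 level differed from that of day 6 by -0.27 (SE 0.032, adjusted p = 2.14e-04). The other IVD gene, Pag.A09G000123.v3.1, changed by 0.33, 0.94 and 0.81, all called.

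Methylcrotonyl-CoA carboxylase adds a carboxyl group to the product of IVD, with the biotin on its alpha subunit. The sum of the 2 MCCB genes was 35.9 ± 1.30, 61.0 ± 2.12, 61.8 ± 2.14 and 46.3 ± 3.00 FPKM on days 0, 3, 6 and 9 (SD, n = 3). The gene Pag.B09G001012.v3.1 had an FPKM of 17.16, 18.25 and 18.19 (day 0), 30.59, 30.05 and 31.02 (day 3), 29.12, 32.35 and 32.23 (day 6), and 22.08, 25.45 and 23.55 (day 9). Days 3 and 6 overlapped with each other, and both lay above day 9, which lay above day 0. On the log2 scale the change was 0.74 (SE 0.057, adjusted p = 7.90e-07) on day 3, 0.77 (SE 0.057, adjusted p = 1.44e-07) on day 6 and 0.39 (SE 0.057, adjusted p = 6.59e-05) on day 9. Days 6 and 3 were not called different, at 0.03 (SE 0.057, adjusted p = 0.662). Day 9 differed from day 6 by -0.39 (SE 0.057, adjusted p = 8.72e-04).

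The 2 MCCA genes summed to 28.5 ± 0.672, 36.2 ± 1.73, 37.5 ± 0.165 and 34.4 ± 1.46 FPKM on days 0, 3, 6 and 9 (SD, n = 3). The gene Pag.A05G002135.v3.1 had an FPKM of 16.48, 16.79 and 16.58 (day 0), 21.11, 20.14 and 21.19 (day 3), 19.85, 20.57 and 20.84 (day 6), and 18.36, 19.19 and 18.73 (day 9). All later libraries were above day 0. The log2 change was 0.31 (SE 0.039, adjusted p = 4.89e-05), 0.28 (SE 0.039, adjusted p = 3.65e-05) and 0.17 (SE 0.039, adjusted p = 0.00217) on days 3, 6 and 9. The ratio of the sums to day 0 on day 3 was 1.27 for the alpha subunit and 1.70 for the beta subunit. The test of that difference between subunits was not run.

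AUH hydrates methylglutaconyl-CoA, the next compound of the branch. Its 6 genes summed to 19.4 ± 0.276, 24.1 ± 2.25, 21.2 ± 1.42 and 19.5 ± 0.993 FPKM on days 0, 3, 6 and 9 (SD, n = 3). Of the 6 genes, 4 were higher on day 3, 1 on day 6 and 0 on day 9. Of the 4 called on day 3, the genes Pag.B03G000884.v3.1 and Pag.B03G001010.v3.1 are the pair with identical values. Their day 3 call, at an adjusted p of 0.0419 by limma, was lost when any single replicate of day 0, or replicate 1 or 3 of day 3, was left out. The day 3 call of Pag.B01G001639.v3.1 was lost without replicate 2 of day 0 or of day 3. The day 6 call, of Pag.A01G001745.v3.1, was lost without replicate 2 of day 0 or replicate 1 of day 6. The AUH gene with the highest level, Pag.B01G001634.v3.1, had an FPKM of 5.89, 6.02 and 5.38 (day 0), 4.85, 4.32 and 7.07 (day 3), 7.19, 6.73 and 5.22 (day 6), and 4.88, 5.26 and 6.46 (day 9). Its days overlapped throughout, and it was not called on any day, with log2 changes of -0.10, 0.12 and -0.06.

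HMGCS makes HMG-CoA, which the leucine branch also produces, and in plants it is best known from the mevalonate pathway in the cytosol. Its 4 genes summed to 47.4 ± 1.74, 49.1 ± 1.71, 47.3 ± 2.45 and 54.0 ± 0.367 FPKM on days 0, 3, 6 and 9 (SD, n = 3). The gene with the highest level, Pag.B03G001405.v3.1, had an FPKM of 24.77, 24.71 and 22.53 (day 0), 24.80, 24.16 and 23.81 (day 3), 18.37, 20.70 and 21.47 (day 6), and 20.77, 21.50 and 21.06 (day 9). Its day 6 and day 9 libraries were below day 0. By limma, the log2 change was -0.24 (SE 0.058, adjusted p = 0.00248) on day 6 and -0.18 (SE 0.058, adjusted p = 0.0156) on day 9, but under median-ratio scaling both were 0.03 and not called. The day 9 call was also lost without replicate 1 or 2 of day 0. The gene Pag.B01G001197.v3.1 had an FPKM of 5.34, 6.11 and 4.69 (day 0), 8.64, 7.48 and 8.87 (day 3), 8.33, 8.45 and 8.29 (day 6), and 12.13, 10.47 and 10.84 (day 9). All its later libraries were above day 0, and day 9 was the highest. Its log2 change was 0.55 (SE 0.088, adjusted p = 3.08e-04) on day 3, 0.56 (SE 0.088, adjusted p = 1.11e-04) on day 6 and 0.93 (SE 0.088, adjusted p = 1.31e-06) on day 9.

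In the valine branch, 2 of 21 tested genes were higher and 2 lower on day 3, 6 higher and 12 lower on day 6, and 7 higher and 10 lower on day 9. The background of genes called lower was 25.2%, 47.6% and 46.0%, and that of genes called higher was 22.6%, 29.2% and 30.9%. The median log2 change was -0.01, -0.25 and -0.21, and under median-ratio scaling it was -0.01, 0.00 and -0.05. That scaling gave 9 genes higher and 9 lower on day 6, and 9 higher and 7 lower on day 9. The steps of the branch differed from each other. All 4 HIBADH genes were lower on days 6 and 9, while ALDH6A1 and HIBCH had genes called in both directions.

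HIBCH removes CoA from hydroxyisobutyryl-CoA. Of its 24 genes, 9 were listed at 0 in all libraries and 10 were tested. Of these 10, 0 were higher and 1 lower on day 3, 4 higher and 3 lower on day 6, and 5 higher and 2 lower on day 9. Their sum was 124 ± 3.52, 121 ± 2.23, 137 ± 4.46 and 145 ± 2.71 FPKM on days 0, 3, 6 and 9 (SD, n = 3). The gene with the highest level, Pag.B14G001757.v3.1, had an FPKM of 28.36, 29.26 and 28.19 (day 0), 27.63, 29.64 and 27.85 (day 3), 30.23, 30.97 and 33.61 (day 6), and 31.35, 30.75 and 32.14 (day 9). Days 6 and 9 lay just above day 0. Against day 0 the log2 change was 0.14 (SE 0.047, adjusted p = 0.0178) on day 6 and 0.13 (SE 0.047, adjusted p = 0.0231) on day 9. The day 6 call was lost without replicate 3 of day 0 or of day 6, and the day 9 call without replicate 1 or 3 of day 0 or replicate 3 of day 9.

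The HIBCH gene Pag.B14G000534.v3.1 had an FPKM of 3.13, 2.82 and 2.66 (day 0), 2.72, 2.46 and 3.17 (day 3), 1.20, 0.59 and 0.83 (day 6), and 0.82, 1.06 and 1.28 (day 9). Its day 6 and day 9 libraries were all below day 0. It differed from day 0 by a log2 change of -1.06 (SE 0.13, adjusted p = 1.26e-05) on day 6 and -0.92 (SE 0.13, adjusted p = 4.26e-05) on day 9. The gene Pag.A06G001411.v3.1 had an FPKM of 12.14, 11.47 and 8.07 (day 0), 7.96, 7.09 and 6.61 (day 3), 13.86, 10.40 and 12.49 (day 6), and 7.96, 10.99 and 10.50 (day 9). It was lower on day 3, at -0.48 (SE 0.16, adjusted p = 0.0282), but this call was lost when any of 4 single libraries was left out, namely replicate 1 or 2 of day 0 or replicate 2 or 3 of day 3. Its days 6 and 9 overlapped day 0. The gene Pag.A06G000171.v3.1 was listed at 0 in the day 0 libraries, at 0.07, 0.00 and 0.20 FPKM on day 3, at 1.94, 2.69 and 1.76 on day 6, and at 1.57, 1.56 and 1.41 on day 9. It passed the minimum only through days 6 and 9, so its calls there carry no weight, though it is among the HIBCH genes counted as higher. No fold is given.

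The genes named both DIM1, after an enzyme that modifies ribosomal RNA, and HIBCH were not called on day 3. The one with the higher level, Pag.B18G000187.v3.1, had an FPKM of 5.79, 6.52 and 5.13 (day 0), 5.35, 6.22 and 5.79 (day 3), 3.14, 3.80 and 4.46 (day 6), and 4.48, 5.09 and 4.53 (day 9). Its day 6 and day 9 libraries were below day 0. The fitted log2 difference from day 0 was -0.51 (SE 0.11, adjusted p = 0.00104) on day 6 and -0.25 (SE 0.11, adjusted p = 0.0493) on day 9. The day 9 call was lost under 9 of the alternatives, among them median-ratio scaling, both smaller pseudocounts and leaving out replicate 1 or 2 of day 0 or replicate 1 or 3 of day 9.

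HIBADH oxidises the free hydroxyisobutyrate. Its 4 genes summed to 65.3 ± 2.44, 64.2 ± 0.896, 28.9 ± 2.48 and 28.8 ± 1.58 FPKM on days 0, 3, 6 and 9 (SD, n = 3). The ratio to day 0 was 0.983, 0.443 and 0.441, and under median-ratio scaling 0.984, 0.537 and 0.512. The gene with the highest level, Pag.A01G002462.v3.1, had an FPKM of 22.45, 23.84 and 22.61 (day 0), 23.81, 23.69 and 25.52 (day 3), 12.61, 11.73 and 12.55 (day 6), and 10.71, 11.11 and 13.68 (day 9). Days 0 and 3 overlapped, and days 6 and 9 lay well below both. On the log2 scale the change was 0.08 (SE 0.077, adjusted p = 0.425) on day 3, -0.85 (SE 0.077, adjusted p = 8.37e-07) on day 6 and -0.91 (SE 0.077, adjusted p = 4.62e-07) on day 9.

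The HIBADH gene Pag.A18G000725.v3.1 had an FPKM of 17.43, 17.31 and 16.13 (day 0), 13.82, 13.05 and 13.99 (day 3), 5.00, 4.39 and 5.33 (day 6), and 4.38, 5.26 and 5.31 (day 9). All later libraries were below day 0, already on day 3. The log2 change was -0.30 (SE 0.078, adjusted p = 0.00825) on day 3, -1.61 (SE 0.078, adjusted p = 2.83e-09) on day 6 and -1.59 (SE 0.078, adjusted p = 3.18e-09) on day 9. The other 2 genes, Pag.B01G002256.v3.1 and Pag.B18G000935.v3.1, changed by -0.85 and -1.22 on day 6 and by -0.86 and -1.14 on day 9.

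ALDH6A1 turns methylmalonate semialdehyde into propionyl-CoA at the end of the branch, and 5 of its 8 genes were tested. The 2 with the highest levels were higher on days 3, 6 and 9. The other 3 were called lower on days 6 and 9, but 1 of these passed the minimum only through days 0 and 3, and the other two lost calls under median-ratio scaling. The sum was 68.9 ± 1.24, 86.1 ± 1.60, 103 ± 2.55 and 89.0 ± 0.350 FPKM on days 0, 3, 6 and 9 (SD, n = 3). The gene Pag.A09G001609.v3.1 had an FPKM of 28.44, 29.71 and 28.94 (day 0), 43.83, 40.51 and 42.44 (day 3), 56.63, 59.25 and 56.74 (day 6), and 46.97, 43.18 and 45.60 (day 9). All later libraries were above day 0, with day 6 the highest. By limma, the log2 change was 0.53 (SE 0.043, adjusted p = 1.33e-06) on day 3, 0.96 (SE 0.043, adjusted p = 1.40e-09) on day 6 and 0.62 (SE 0.043, adjusted p = 7.81e-08) on day 9.

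The second of the higher ALDH6A1 genes, Pag.A09G000009.v3.1, changed by 0.31, 0.60 and 0.56 on days 3, 6 and 9. The low gene Pag.A05G001501.v3.1 had an FPKM of 1.65, 1.69 and 1.38 (day 0), 1.24, 1.42 and 1.24 (day 3), 0.43, 0.46 and 0.42 (day 6), and 0.66, 0.75 and 0.67 (day 9). Its day 6 and day 9 libraries were all below day 0 and below 1 FPKM. It passed the minimum only through days 0 and 3, so its calls as lower on days 6 and 9 carry no weight, though they are among those counted for the branch. The remaining 2 genes, Pag.A01G003272.v3.1 and Pag.A01G005345.v3.1, changed by -0.25 and -0.43 on day 6, values that median-ratio scaling moved to 0.00 and -0.21, which ended the call of the first. On day 9 they changed by -0.29 and -0.35, and the same scaling moved these to -0.09 and -0.18 and ended both calls.

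HPD1 oxidises hydroxypropionate in the onward breakdown of propionyl-CoA. Its gene Pag.A01G005103.v3.1 had an FPKM of 9.78, 10.27 and 10.22 (day 0), 11.81, 12.25 and 10.91 (day 3), 5.74, 4.77 and 5.98 (day 6), and 3.65, 3.77 and 4.17 (day 9). Day 3 lay above day 0 without passing the test, and days 6 and 9 lay below it. It differed from day 0 by a log2 change of 0.19 (SE 0.078, adjusted p = 0.0661) on day 3, -0.78 (SE 0.078, adjusted p = 2.23e-06) on day 6 and -1.19 (SE 0.078, adjusted p = 4.59e-08) on day 9. Day 9 differed from day 6 by -0.41 (SE 0.078, adjusted p = 0.00342).

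The AGXT2 genes, named for an aminotransferase that passes amino groups to glyoxylate or pyruvate, had a sum of 38.3 ± 0.756, 33.2 ± 1.36, 51.7 ± 0.747 and 45.7 ± 1.54 FPKM on days 0, 3, 6 and 9 (SD, n = 3). The gene Pag.B07G000644.v3.1 had an FPKM of 21.68, 22.02 and 21.51 (day 0), 16.09, 16.33 and 16.54 (day 3), 29.76, 31.12 and 31.11 (day 6), and 22.33, 23.12 and 22.29 (day 9). Day 3 was the lowest day and day 6 the highest, without overlap. The fitted log2 difference from day 0 was -0.39 (SE 0.036, adjusted p = 3.64e-06) on day 3 and 0.48 (SE 0.036, adjusted p = 1.77e-07) on day 6, and day 9 was not called at 0.05 (SE 0.036, adjusted p = 0.207). The difference between days 6 and 3 was 0.87 (SE 0.036, adjusted p = 1.45e-09).

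The AGXT2 gene Pag.A07G002429.v3.1 had an FPKM of 10.20, 9.36 and 10.44 (day 0), 8.84, 10.20 and 11.00 (day 3), 16.29, 16.24 and 16.85 (day 6), and 16.00, 15.26 and 15.87 (day 9). Days 0 and 3 overlapped, and days 6 and 9 lay above both. On the log2 scale the change was 0.67 (SE 0.069, adjusted p = 2.93e-06) on day 6 and 0.60 (SE 0.069, adjusted p = 7.18e-06) on day 9. The low gene Pag.A16G000135.v3.1 had an FPKM of 2.58, 2.33 and 2.72 (day 0), 3.51, 2.94 and 3.24 (day 3), 1.62, 1.45 and 1.12 (day 6), and 2.02, 3.30 and 3.94 (day 9). Only day 6 was called against day 0, at -0.57 (SE 0.16, adjusted p = 0.00573), and day 9 was above day 6 by 0.75 (SE 0.16, adjusted p = 0.00608).

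ACSF3 is known in mammals as a synthetase that activates malonate and methylmalonate. The gene Pag.A01G002101.v3.1 had an FPKM of 16.85, 16.81 and 16.66 (day 0), 14.29, 13.03 and 13.01 (day 3), 11.75, 10.60 and 11.31 (day 6), and 12.81, 13.80 and 14.31 (day 9). All later libraries were below day 0. The log2 change was -0.30 (SE 0.056, adjusted p = 9.53e-04) on day 3, -0.54 (SE 0.056, adjusted p = 3.00e-06) on day 6 and -0.28 (SE 0.056, adjusted p = 6.94e-04) on day 9, and the day 9 call was lost under median-ratio scaling at -0.08. The gene Pag.A01G002124.v3.1 had an FPKM of 1.68, 1.97 and 1.84 (day 0), 2.33, 1.15 and 1.57 (day 3), 2.27, 1.71 and 2.12 (day 6), and 2.70, 4.56 and 3.17 (day 9). It was called on day 9, at 0.64 (SE 0.17, adjusted p = 0.00502), where its libraries lay above all others. The gene that also carries the name leuB, an enzyme of leucine synthesis, was Pag.B01G002045.v3.1, with an FPKM of 20.53, 20.53 and 20.54 (day 0), 20.31, 19.12 and 22.11 (day 3), 26.14, 26.91 and 25.99 (day 6), and 31.39, 32.78 and 33.11 (day 9). Days 6 and 9 lay above day 0. Its log2 change was 0.34 (SE 0.049, adjusted p = 4.97e-05) on day 6 and 0.63 (SE 0.049, adjusted p = 2.24e-07) on day 9.

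Of the 83 members, 44 have the letter A and 39 the letter B in their gene IDs, which the files do not explain, followed by a number that is read here as the chromosome. In 14 cases exactly 1 tested A gene and 1 tested B gene shared an enzyme name and a chromosome number. On day 3, both genes of a pair were called in the same direction in 3 pairs, 1 gene alone was called in 5 and neither in 6. On day 6 the counts were 10 pairs in the same direction, 3 with 1 gene called and 1 pair in opposite directions. On day 9 they were 8 in the same direction, 4 with 1 gene called, 1 with neither and 1 in opposite directions. The pair in opposite directions was that of the BCAT genes on chromosome 2 on both days. Over all genes tested, 47.7%, 76.8% and 76.9% were called on days 3, 6 and 9. Pairs outside the members were not counted, so these counts have no background of their own. The sources used here do not say how the authors' counting shared reads between near-identical copies, so the split within a pair is uncertain.

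In the BCAT pair on chromosome 2, Pag.A02G001562.v3.1 and Pag.B02G001263.v3.1, the A gene stood at 0.176 ± 0.0161 of the B gene on day 0. The ratio was 0.414 ± 0.0181 on day 3, 1.48 ± 0.215 on day 6 and 1.40 ± 0.147 on day 9 (SD, n = 3). In the BCAT pair on chromosome 9 it was 0.804 ± 0.0417, 0.926 ± 0.0279, 2.62 ± 0.339 and 3.24 ± 0.742 on the same days. The A genes thus gave 30.8%, 43.5%, 65.7% and 66.2% of the BCAT sum on days 0, 3, 6 and 9. The share of A genes in the BCKDHA sum was 56.0%, 55.9%, 32.1% and 34.7%. The tested BCKDHA genes share chromosome 5 with several A and several B genes, so the rule formed no BCKDHA pair. Among them, Pag.A05G001887.v3.1 had a mean of 6.92 FPKM on day 0 and 41.2 on day 6. Pag.B05G001863.v3.1 had 3.47 and 90.2 FPKM, so the order of these A and B genes also turned. The pairs of other enzymes that were formed kept a narrower range than those of BCAT. The MCCB ratio was 1.01 ± 0.0239 on day 0 and 0.956 ± 0.0215 on day 9, and the IVD ratio was 0.498 ± 0.0339 and 0.544 ± 0.0197. A ratio within a library does not depend on the scaling between libraries.

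**Figure D4:**
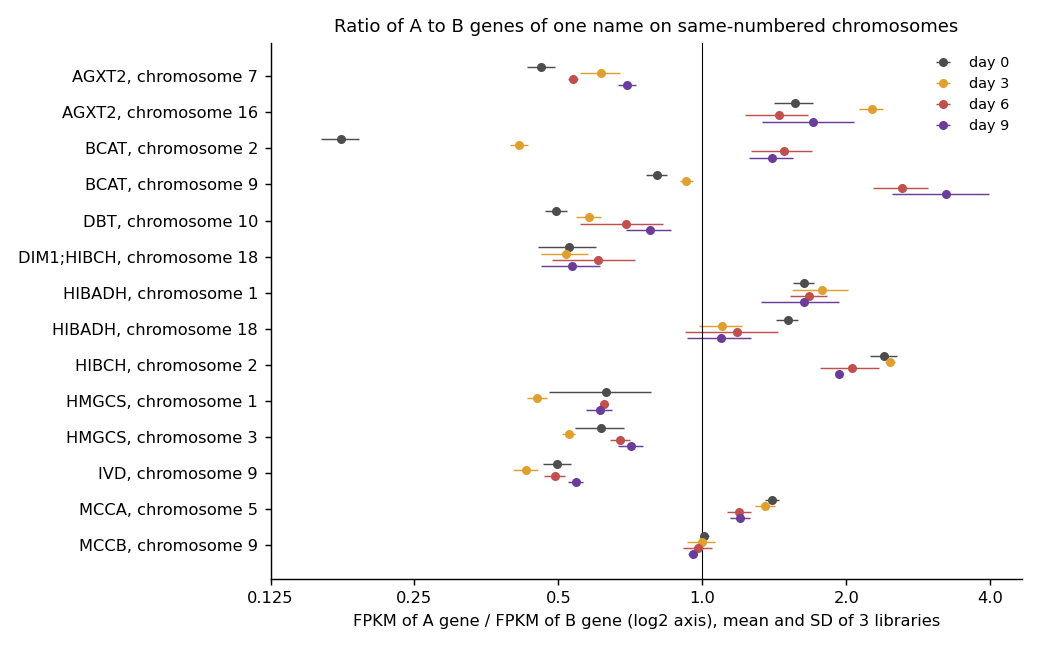
Ratio of the FPKM of the A gene to that of the B gene (horizontal log2 axis) in the 14 pairs that share an enzyme name and a chromosome number. Points are means of 3 libraries and lines the SD. Among these 14, only the 2 BCAT pairs cross 1, from 0.176 and 0.804 on day 0 to 1.48 and 2.62 on day 6, beside MCCB, which stays near 1. BCKDHA formed no pair and is not shown.

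Consecutive days were also compared directly. Between days 3 and 6, 17 of 59 members were higher and 24 lower on day 6, which is 69.5% called against 72.6% of all genes. Of all genes, 25.7% were higher and 46.9% lower. The libraries of these days did not overlap for 19 members above and 22 below, beside 75.1% of all genes. Under median-ratio scaling the split was 28 higher and 13 lower, while the share of calls over all genes that were higher moved from 35.4% to 50.8%. All 4 BCKDHA genes and both IVD genes were higher on day 6 than on day 3, and all 4 HIBADH genes were lower. None of the 4 carboxylase genes was called between these days, but under median-ratio scaling all 4 were called higher on day 6. The MCCA genes Pag.A05G002135.v3.1 and Pag.B05G002125.v3.1 then changed by 0.24 and 0.41, and the MCCB genes Pag.A09G000980.v3.1 and Pag.B09G001012.v3.1 by 0.28 and 0.30. Between days 6 and 9, 9 members were higher on day 9 and 10 lower, which is 32.2% called against 21.7% of all genes. Among all genes tested, 12.9% were higher and 8.73% lower. Median-ratio scaling turned this balance, with the higher share of all calls at 59.7% before and 42.9% after, and gave 9 members higher and 12 lower. Their libraries did not overlap for 11 members above and 17 below, beside 37.0% of all genes. Both MCCB genes and 1 gene each of BCKDHA, IVD and ALDH6A1 were lower on day 9 than on day 6. The same held for 2 BCAT genes and 1 gene each of HIBCH, HPD1 and AGXT2. With 1 library left out, 0 to 2 of the BCAT calls remained. Those higher were 2 genes each of HMGCS, HIBCH and AGXT2 and all 3 ACSF3 genes. For the ACSF3 gene Pag.A01G002124.v3.1 that call was lost under 10 alternatives, among them leaving out any library of day 6 or replicate 2 or 3 of day 9. No member differed by 1 or more on the log2 scale between days 6 and 9.

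Of the genes in the same pathway entry that the rule left out, 52 were tested. Of these, 22 were higher and 4 lower on day 3, 27 higher and 18 lower on day 6, and 27 higher and 18 lower on day 9. Of all genes tested, 22.6%, 29.2% and 30.9% were higher on these days and 25.2%, 47.6% and 46.0% lower. All 3 genes named ALDH7A1, an aldehyde dehydrogenase that also takes part in lysine breakdown, were higher on each day, with median log2 changes of 1.91, 2.55 and 2.13. Both acetyl-CoA acetyltransferase (ACAT) genes were higher on each day as well. Dihydrolipoyl dehydrogenase (DLD), the E3 subunit shared by the oxoacid dehydrogenase complexes, had 1, 4 and 5 of 7 genes higher on days 3, 6 and 9. On the same days 0, 1 and 1 of them were lower. The largest group, named ALDH, had 17 tested genes. Of these, 6 were higher and 4 lower on day 3, and 5 were higher and 11 lower on each of days 6 and 9. Their median log2 change was 0.0046, -0.82 and -0.78. The 4 tested genes named paaF split into 2 higher and 2 lower on days 6 and 9.

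The pyruvate dehydrogenase complex is related to the branched-chain complex. Of 25 tested genes, 5 were higher and 7 lower on day 3, 12 were higher and 8 lower on day 6, and 14 were higher and 7 lower on day 9. Their median log2 change was -0.07, 0.21 and 0.34, beside 0.45, 0.64 and 0.50 for the 9 tested BCKDHA and DBT genes together. The latter medians mix 2 subunits, with 1.07, 1.68 and 1.60 for BCKDHA and 0.41, 0.15 and 0.28 for DBT. Of these 9 genes, 4 were higher on each day and 0, 1 and 1 lower. Of all genes tested, 22.6%, 29.2% and 30.9% were higher. The difference between the 2 complexes was not tested. Of 28 tested genes of branched-chain amino acid synthesis outside the members, 12 were higher and 7 lower on day 3. On day 6, 8 were higher and 14 lower, and on day 9, 7 were higher and 15 lower. Of all genes tested, 25.2%, 47.6% and 46.0% were lower on these days. The summed level of the 37 genes listed was 428.8 to 433.7 FPKM on day 0 and 487.1 to 510.4 on day 3. It was 593.8 to 616.6 on day 6 and 587.8 to 608.2 on day 9. The sum thus went up on days 6 and 9 while more genes were called lower than higher.

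Electrons from IVD pass through the electron transfer flavoprotein (ETF) and its oxidoreductase (ETFDH) to ubiquinone. No gene carries the KO number of the ETF beta subunit, so only the alpha subunit of ETF was analysed here. The ETF alpha subunit gene Pag.B11G000385.v3.1 had means of 5.58, 8.65, 19.5 and 17.9 FPKM on days 0, 3, 6 and 9. The other alpha subunit gene, Pag.A11G001505.v3.1, had 4.32, 7.19, 12.0 and 11.5 FPKM. Both were called higher on each day. The ETFDH gene Pag.A17G001523.v3.1 had 10.5, 23.4, 19.7 and 16.2 FPKM and was called higher on each day, while Pag.B17G001567.v3.1 had 10.9, 14.8, 12.0 and 9.90 FPKM and was called on day 3 only. Genes of D-2-hydroxyglutarate dehydrogenase (D2HGDH), which passes electrons to the same carrier, were lower on each day, with Pag.B07G001391.v3.1 at 45.8, 35.2, 22.4 and 22.2 FPKM.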

How the data were processed

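RNA was measured in 12 leaf libraries, 3 a day, which the labels assign to days 0, 3, 6 and 9. The authors deposited FPKM values for all genes, per the file headers and names. Not given in the sources used here are the aligner, the counting program, the genome build and the strand setting. Gene names, GO terms and pathway entries are those of the same table. Some genes outside the members are counted in totals but not reported here by name. The subset tables by day were not used here, and those for days 3 and 6 hold the same 5882 genes.

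The members, lists and tests were chosen with earlier results of these data known. Values were analysed as log2(FPKM + 1), with a pseudocount of 1, for the 40736 genes with at least 1 FPKM in at least 3 libraries. limma 3.58.1 (R 4.3.3) fitted 1 mean for each day over the 12 libraries, moderating variances robustly along an intensity trend. P-values were adjusted by Benjamini and Hochberg over all genes tested within each comparison and called under 0.05. The procedure was tested on simulated data. Other steps used numpy 2.4.6, pandas 2.3.3 and matplotlib 3.10.9 under Python 3.11.15.

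The genes named are the member with the highest mean of each enzyme name, and for each day against day 0 the 3 largest called rises and falls that reached a mean of 5 FPKM in the higher group and whose libraries did not overlap. Where genes of 1 name were called in opposite directions on a day, its largest rise and fall were added, which gave 30 genes. Members described beside these serve to account for the rest of their enzyme. Alternatives were pseudocounts of 0.1 and 0.5, no filter, a mean of at least 5 FPKM, median-ratio scaling, plain moderation, only the days compared, the replicate number as a block, and leaving out each library. The scaling of the enzyme sums was added after seeing the data.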

Additional observations from a re-analysis of the deposited data

Results flagged for a closer look

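For 2 genes the change against day 0 went in opposite directions on days 3 and 6, and the direct comparison of the days passed the test in limma. The AGXT2 gene Pag.B07G000644.v3.1 was lower on day 3 and higher on day 6, and the difference between days 6 and 3 was 0.87 (SE 0.036, adjusted p = 1.45e-09) on the log2(FPKM + 1) scale, with all 3 libraries of day 6 above all 3 of day 3. The BCAT gene Pag.A09G000831.v3.1 was higher on day 3 and lower on day 6, and the difference was -0.71 (SE 0.049, adjusted p = 1.19e-07), with all 3 libraries of day 6 below all 3 of day 3. Under median-ratio scaling the differences were 1.13 and -0.46. The day 3 call of the BCAT gene, at 0.15 with an adjusted p of 0.03, was lost when any of 4 single libraries was left out.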

How the results depend on the processing

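Median-ratio scaling of the libraries changed the results most. It moved the median log2 change of the members to 0.31 on day 6 and 0.33 on day 9 against day 0 and to 0.24 on day 6 against day 3, where 28 members were then higher and 13 lower. Over all genes, it moved the share of calls on day 6 against day 3 that were higher from 35.4% to 50.8%. Among the comparisons of named genes that passed the test with or without it, it turned the direction of 6. HMGCS Pag.B03G001405.v3.1 went to 0.025 on day 6, 0.0303 on day 9 and 0.0083 on day 6 against day 3. On day 6 against day 3, ACSF3 Pag.A01G002101.v3.1 went to 0.0151, DBT Pag.B10G000145.v3.1 to 0.0569 and MCCA Pag.A05G002135.v3.1 to 0.24. The change follows from the scaling itself, which shifts all genes of a library together. Testing only genes with a mean of at least 5 FPKM left 23055 genes, of which 18796 were called on day 6, 18858 on day 9 and 17938 on day 6 against day 3. With 40 members tested there, 13 were lower on day 6 against day 3 and 5 higher on day 9 against day 6.

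No sign was seen that the replicate numbers pair the libraries. Same-numbered libraries deviated together with correlations between -0.0268 and 0.0381, and differently numbered ones between -0.0321 and 0.038. These values do not show how the replicates were numbered. With the replicate number as a block, 18880, 31079 and 31120 genes were called on days 3, 6 and 9 against day 0, 29313 on day 6 against day 3 and 8084 on day 9 against day 6. Of the 105 calls among 150 comparisons of named genes, 102 were kept under the block and 3 were lost, all of day 9 against day 6. The leucine branch then had 8 genes higher on day 3, without the pair of identical AUH genes. In day order, leaving out 1 library gave 15 to 17, 22 to 23 and 22 to 25 members higher and 4 to 5, 19 to 21 and 15 to 18 lower against day 0. Over all named genes and single libraries left out, 592 of 630 calls were kept, 38 were lost and 3 were gained. Depth is unknown, so no limit of detection can be given for genes listed at 0.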

Other observations

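Lysine breakdown, which shares the electron transfer flavoprotein with leucine breakdown, begins with a bifunctional enzyme named AASS. Its gene Pag.A06G001620.v3.1 had a mean of 19.3 ± 1.38, 24.8 ± 0.615, 180 ± 1.26 and 137 ± 5.00 FPKM on days 0, 3, 6 and 9 (SD, n = 3). The log2 change by limma was 0.35 on day 3, 3.16 on day 6 and 2.77 on day 9, all called. Pag.B06G001525.v3.1 had means of 17.2, 15.8, 77.6 and 72.6 FPKM, with changes of 2.11 on day 6 and 2.02 on day 9, and was not called on day 3 at -0.11. The third gene, Pag.A06G001611.v3.1, had means of 0.513, 0.233, 6.49 and 5.46 FPKM. AASS was among the lists chosen with earlier results of these data known.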
